A study of Mus musculus with 6 samples.

Results

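The samples described here are the 3 libraries labelled Parental, out of 6 in the series, and they were taken by their group label alone. They are RNA sequencing libraries of mouse HOXB-8 cells from bone marrow, wild type for Irf2, and the extraction notes give Luc as their control guide RNA. The same notes call the lines iMACs. The labels give neither the culture medium, nor the number of clones behind the line, nor whether the 3 libraries came from separate cultures. The spread reported below may therefore be technical. The other 3 libraries, labelled IRF2_KO, enter no value given here.

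HOXB-8 lines are made by forcing marrow progenitors to express Hoxb8, a homeobox gene whose product holds myeloid cells in a dividing, undifferentiated state. In normal marrow, cells on the way to neutrophils pass through the promyelocyte stage, at which they make the serine proteases and myeloperoxidase of the azurophil (primary) granules. The proteins of secondary granules are made later, and monocytes and macrophages leave this path earlier and build other programmes. Levels are given as the deposited RPKM, reads per kilobase of gene model scaled to library size with a size factor, because this scale allows different genes to be compared. Each mean is over the 3 libraries and is followed by its SD (n = 3). A gene is called on where all 3 libraries reached 1 RPKM, and off where all 3 stayed under 0.1 RPKM.

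Each library held between 33422590 and 39925038 counts, at which 3 counts, the most that a count of 0 allows, correspond to 0.0751 to 0.0898 CPM, the count scaled to library size. Parental 1 stood apart: the mean chi-square per gene was 5.73 for Parental 1 and 2, 6.95 for Parental 1 and 3, and 2.78 for Parental 2 and 3, where sampling noise alone gives 1. Calls of on and off moved little with it, since 10958 gene IDs were on without Parental 1 against the 10907 given next. Irf2 itself stood at 7.70, 7.93 and 7.67 RPKM in Parental 1, 2 and 3. Of 36528 gene IDs, 10907 were on, 21950 were off and 17263 of the latter had no read in any of the 3 libraries. Among 21267 protein-coding genes, 9633 (45.3%) were on and 9836 (46.3%) were off. Only 1798 lay between, so that most coding genes fell clearly to one side. Of the coding genes that were on, 3778 had a mean under 10 RPKM, 5191 lay between 10 and 100, 637 between 100 and 1000, and 27 above 1000 RPKM. By contrast, 413 of 7482 long non-coding RNA genes (5.52%) were on.

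The most abundant transcripts of these cells encoded azurophil granule proteins. Prtn3, which encodes proteinase 3, stood at 3764, 4090 and 4167 RPKM in Parental 1, 2 and 3 and ranked 1 of all gene IDs. Ctsg, cathepsin G, followed with 3547, 3751 and 3845 RPKM. Elane, neutrophil elastase, had 3050, 3182 and 3242 RPKM and ranked 4. Gpx1, a glutathione peroxidase, stood between at rank 3 (3165, 3362 and 3460 RPKM). The order Prtn3, Ctsg, Gpx1, Elane held within each library, although over the 3 libraries the ranges of Prtn3 and Ctsg overlapped, as did those of Gpx1 and Elane. All 3 protease genes were lowest in Parental 1 and highest in Parental 3. Their ratios varied less: the ratio of Prtn3 to Elane was 1.27 ± 0.0297 and that of Ctsg to Elane 1.18 ± 0.0118. Mpo, which encodes myeloperoxidase, was lower, at 298, 324 and 322 RPKM and rank 144. Prtn3 exceeded it 12.7 ± 0.184 times per unit of length.

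The other genes of this granule programme were also on, 9 of 9 in all, with a median of 1171 RPKM, against 45.3% on and 0.256 RPKM over all protein-coding genes. The list was chosen with earlier results of these data known. Srgn, the proteoglycan serglycin that packs proteases into granules, stood at 1773 ± 72.8 RPKM. Ms4a3, a membrane protein typical of granulocyte and monocyte progenitors, had 1171 ± 31.1 RPKM. Ctsc, the peptidase that activates granule proteases, had 44.5, 40.7 and 41.6 RPKM, and Prss57, a further granule protease, 13.6 ± 0.631 RPKM. Inhibitors of these enzymes were abundant too. Slpi, a secreted inhibitor of elastase and cathepsin G, ranked 7 at 2314 ± 110 RPKM, and Serpinb1a, an intracellular one, had 457 ± 15.5 RPKM.

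**Figure D1:**
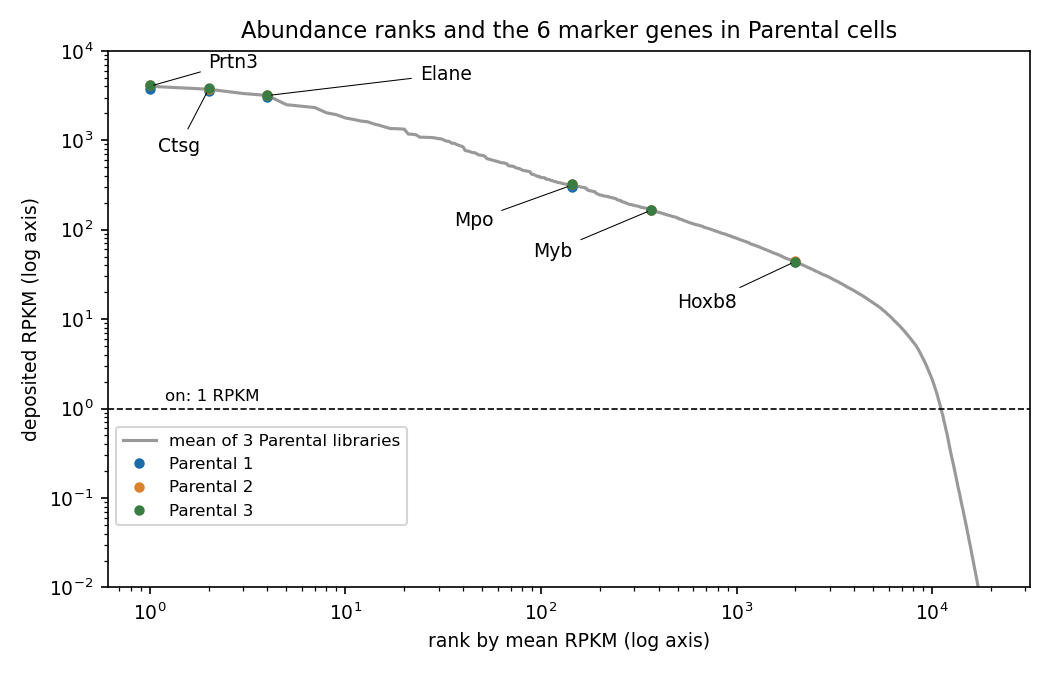
Deposited RPKM (log axis) against abundance rank (log axis) for genes with a symbol and at least 1 read. The line is the mean of 3 libraries, coloured points are the single libraries for the 6 marker genes, and the dashed line marks 1 RPKM. Prtn3, Ctsg and Elane sit at ranks 1, 2 and 4, Mpo at 144, Myb at 367 and Hoxb8 at 1986, and the points of the 3 libraries nearly coincide.

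The promoters of the 4 granule genes among the markers are shown because their transcripts were abundant together with those of Spi1 and Myb, whose products bind such promoters. Each line gives the 250 bases before the RefSeq start on GRCm38.p6, 5′ to 3′ on the strand of the gene, with every GAGGAA in capitals. GAGGAA is a core of sites for PU.1, the product of Spi1.
Prtn3 (chr10:79879417-79879666, plus strand): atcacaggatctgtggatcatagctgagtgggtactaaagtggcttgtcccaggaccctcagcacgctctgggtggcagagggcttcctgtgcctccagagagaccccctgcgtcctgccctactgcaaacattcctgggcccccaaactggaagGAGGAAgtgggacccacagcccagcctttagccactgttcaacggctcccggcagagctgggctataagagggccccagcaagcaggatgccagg
Elane (chr10:79886062-79886311, plus strand): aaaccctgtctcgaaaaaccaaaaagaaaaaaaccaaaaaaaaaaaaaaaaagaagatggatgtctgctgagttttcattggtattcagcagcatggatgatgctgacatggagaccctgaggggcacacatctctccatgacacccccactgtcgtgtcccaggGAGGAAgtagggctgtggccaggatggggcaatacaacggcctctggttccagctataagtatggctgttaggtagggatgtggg
Ctsg (chr14:56102575-56102824, minus strand): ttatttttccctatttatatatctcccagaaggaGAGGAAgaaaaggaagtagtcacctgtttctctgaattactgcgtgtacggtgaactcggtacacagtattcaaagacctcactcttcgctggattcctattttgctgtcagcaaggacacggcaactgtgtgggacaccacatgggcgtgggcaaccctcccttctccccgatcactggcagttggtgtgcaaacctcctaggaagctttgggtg
Mpo (chr11:87793534-87793783, plus strand): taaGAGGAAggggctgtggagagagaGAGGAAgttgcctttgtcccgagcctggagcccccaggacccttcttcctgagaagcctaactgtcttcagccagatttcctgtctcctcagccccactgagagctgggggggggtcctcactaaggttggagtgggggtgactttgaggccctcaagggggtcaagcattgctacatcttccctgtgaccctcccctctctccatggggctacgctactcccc
GAGGAA, searched on both strands, occurred in all 4 windows. It began 95 bases before the start in Prtn3, 85 in Elane, 216 in Ctsg and at both 247 and 224 in Mpo. Of 17000 protein-coding promoters of this length, taking the first listed start per gene, 22.3% held it, as did 22.2% of those of genes on and 21.8% of those of genes off. Of the granule list, 7 of 9 genes had a promoter in the table and 5 of the 7 held GAGGAA. The MYB core AACNG occurred in all 4 windows and in 73.0% of all promoters. In Prtn3 and Elane a copy of this core, AACGG, lay 55 and 50 bases before the start. TGTGGT, a RUNX core, occurred once in the 4 windows, in Ctsg, against 12.2% of promoters. The C/EBP core TTGCNNAA occurred in none of the 4 and in 9.08% of promoters. These matches are letters in a window and were not tested for binding.

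The genes that flank the proteases were far lower, which was looked at after the values were seen. Prtn3 (chromosome 10, 79879667 to 79883174, GRCm38) and Elane (79886312 to 79888216) are adjacent. The next gene on the Elane side, Cfd, complement factor D, was at 0.487 RPKM, and Plppr3, on the Prtn3 side, at 90.4 RPKM. Ctsg (chromosome 14, 56099885 to 56102574) lies among mast cell protease and granzyme genes. Of the other 9 coding genes within 100 kb, Mcpt8 and Gzme reached 3.01 and 3.30 RPKM, and the remaining 7 were at or below 0.0527 RPKM. Ms4a3 on chromosome 19 had as highest coding neighbour within 100 kb Oosp1, at 21.1 RPKM. Ly6c2, a surface antigen of monocytes and their precursors, had 1605 ± 40.5 RPKM. Its neighbours Ly6c1, Ly6a2 and Ly6g had 0.916, 2.87 and 0.654 RPKM. Ly6e, a family member on the same chromosome beyond that distance, had 366 ± 9.03 RPKM. The Ly6 genes are close copies and only reads aligned uniquely were counted, so how reads divide between them is uncertain.

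Beyond the granule genes, the 20 coding genes of highest level had varied roles. They included P4hb, a disulfide isomerase of the endoplasmic reticulum (1347 ± 40.4 RPKM), and Calr, its calcium-binding chaperone calreticulin (1329 ± 7.91 RPKM). Others were Hsp90ab1, a cytosolic chaperone (1640 RPKM), Rack1, a ribosome-bound scaffold (1707 RPKM), and Mt1, a metallothionein (1338 ± 66.6 RPKM). Plac8, a small cysteine-rich protein of myeloid progenitors, had 1463 ± 44.2 RPKM and Aldoa, aldolase of glycolysis, 1165 ± 72.6 RPKM. ND1 and CYTB of the mitochondrial genome and the ribosomal protein genes Rpl8 and Rpl4 made up the 20 with Tmsb4x, an actin-binding peptide. The 10 highest coding genes took 7.06% of the summed RPKM of coding genes and the 100 highest 23.5%. Ribosomal protein genes ranged from 0 to 2025 RPKM with a median of 15.6, and 31 of 85 were under 10 RPKM. Gapdh was listed at 3.25 ± 0.203 RPKM, far below Aldoa. Ribosomal protein genes and Gapdh have many processed pseudogenes, and reads that align to several places are not counted; the part of this in their levels was not tested.

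Genes of later neutrophil maturation were present at lower levels. Of 17 markers, 13 were on, 3 lay between and 1 was off, with a median of 12.7 RPKM. Over all coding genes 45.3% were on and 46.3% off. Chil3, a chitinase-like lectin, led at 251, 240 and 241 RPKM, followed by S100a8, a subunit of calprotectin, at 153, 134 and 144 RPKM. S100a8 was lowest in Parental 2, and its level was below that of Elane by a factor of 22.0 ± 1.95. S100a9, its partner, had 90.2 ± 2.62 RPKM and the collagenase Mmp8 50.2 ± 1.97 RPKM. Lcn2, an iron-sequestering protein of secondary granules, had 49.0 ± 2.21 RPKM. The secondary granule genes Camp (cathelicidin), Ngp and Ltf (lactoferrin) graded down from 39.5 ± 2.44 through 21.9 ± 1.40 to 2.26 ± 0.351 RPKM. Retnlg, a resistin-like protein, and Cd177, a neutrophil surface antigen, had 10.5 and 5.59 RPKM, above Ltf, and Padi4, which citrullinates histones, 1.59 RPKM. The members not on were as follows. Cxcr2, a chemokine receptor, was at 0.875 RPKM, Ly6g at 0.654 RPKM, Mmp9, gelatinase B, at 0.264 RPKM, and Itgb2l, an integrin chain, at 0.0656 RPKM. These are averages over a culture, in which fewer maturing cells and less RNA per cell cannot be told apart.

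Of 22 monocyte and macrophage markers 12 were on and 9 off, a split near that of all coding genes (45.3% on and 46.3% off). Besides Ly6c2, the highest were Lyz2, lysozyme (176, 173 and 182 RPKM), Gpnmb, a lysosomal glycoprotein (48.1, 46.9 and 47.2 RPKM), and Cd14, a lipopolysaccharide co-receptor (37.0, 38.4 and 37.6 RPKM). Adgre1, which encodes the antigen F4/80, had 23.2 ± 0.318 RPKM. Lpl, a lipase of macrophages, followed at 17.1 RPKM and Cd68, a lysosomal marker, at 9.59 RPKM. Mrc1, a mannose receptor, had 4.01 RPKM, Apoe, an apolipoprotein, 3.67 RPKM, Ccr2, a chemokine receptor of monocytes, 2.87 RPKM, and Trem2, a lipid receptor, 2.05 RPKM. Other members were at the floor: C1qa, C1qb, Ms4a7 and Marco had no read in any library, and C1qc had 2 reads and Mertk 34 over all 3. Csf1r, the receptor for macrophage growth factor, was at 1.03, 1.04 and 1.05 RPKM, just over the level called on. Set beside the name iMACs in the extraction notes, the macrophage list thus holds members both on and without a read.

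**Figure D2:**
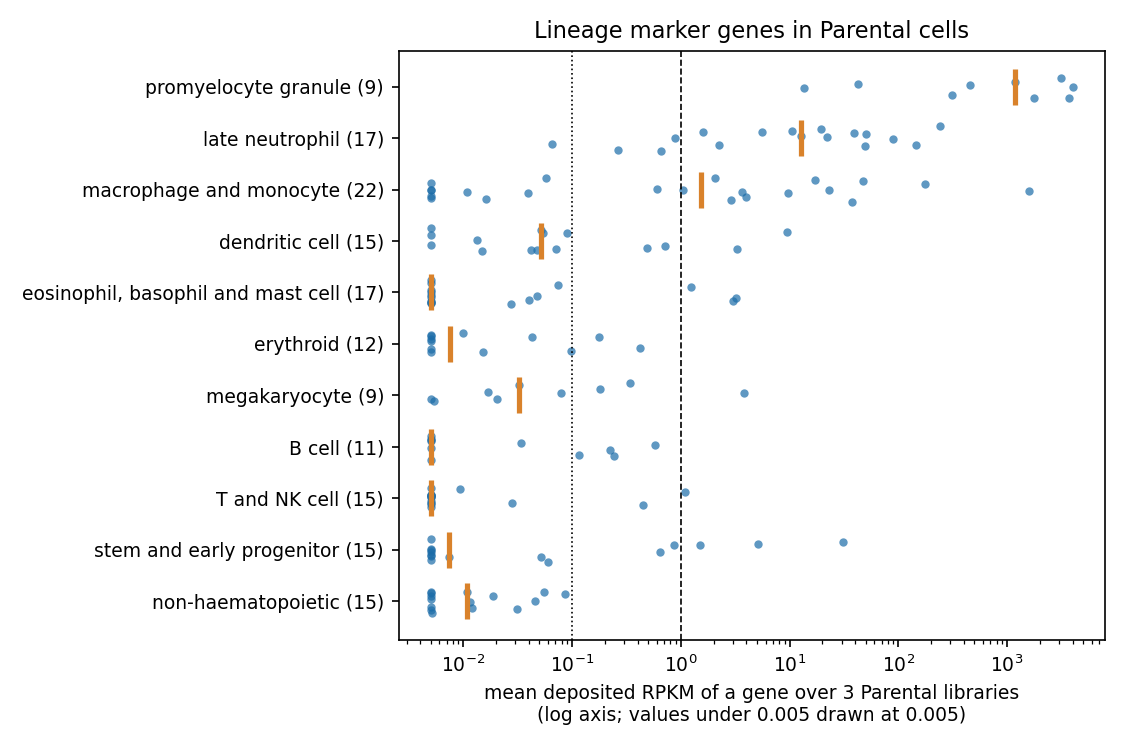
Mean deposited RPKM (log axis) of each marker gene, 1 point per gene, for 11 lineage lists with their number of members. Orange bars are medians, the dashed line is 1 RPKM and the dotted line 0.1 RPKM. Promyelocyte granule genes lie highest (median 1171 RPKM), late neutrophil genes next (12.7 RPKM), and the macrophage and monocyte list divides around 1 RPKM, and the medians of the other 8 lists lie under 0.1 RPKM.

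Other blood lineages had few markers on or none, whereas 45.3% of all coding genes were on and 46.3% off. No erythroid marker was on, and 9 of 12 were off, among them the alpha globins Hba-a1 and Hba-a2, which had no read but are near-identical copies that unique counting can empty, and Gata1, with 1 read. No B cell marker was on, 7 of 11 were off, and Pax5 and Rag1 had no read. Ebf1, a B lineage transcription factor, was the highest of that list at 0.583 ± 0.0314 RPKM. Of 15 T and NK markers 13 were off. Nkg7, a granule membrane protein of cytotoxic cells, stood at 0.936, 1.13 and 1.23 RPKM and missed the level called on through Parental 1 alone, without which 1 of 15 was on. Of 9 megakaryocyte markers only Gp1bb was on (3.82 ± 0.209 RPKM), while Pf4 had 2 reads. None of 15 markers of stromal, endothelial, epithelial or liver cells was on and 14 were off, with Lepr the highest at 0.0861 RPKM.

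Dendritic and granulocyte side lineages also had few markers on, against 45.3% of all coding genes. Of 15 dendritic cell markers 2 were on, Clec10a, a lectin (9.49 ± 0.168 RPKM), and Flt3, a growth factor receptor (3.29 ± 0.127 RPKM). The class II genes H2-Aa, H2-Ab1 and H2-Eb1 had 7, 12 and 10 reads over all 3 libraries. Of 17 eosinophil, basophil and mast cell markers 3 were on. They were Ms4a2, the beta chain of the IgE receptor (3.21 ± 0.0922 RPKM), Mcpt8, a basophil protease (3.01 ± 0.173 RPKM), and Siglecf, an eosinophil lectin (1.25 ± 0.122 RPKM). The ligand-binding chain of the same IgE receptor, Fcer1a, and the mast cell peptidase Cpa3 had no read.

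Markers of stem and early progenitor cells were mostly absent. Of 15 members 3 were on and 10 off, against 45.3% on and 46.3% off over all coding genes. Mycn, a MYC family factor of stem cells, led with 30.4, 31.4 and 31.1 RPKM. Ly6a, the stem cell antigen Sca-1, had 5.17 ± 0.281 RPKM and Kit, the receptor for stem cell factor, 1.51 ± 0.0265 RPKM. Cd34 had 2 reads over all 3 libraries. Meis1, Hoxa9, Slamf1 and Tek had none. Cd48, an antigen found on most blood progenitors, also had no read, whereas 15 of the 16 genes in the list of leukocyte surface and adhesion molecules were on. Ptprc, which encodes CD45, had 40.2 RPKM, Itgam, the CD11b integrin chain, 26.9 ± 0.571 RPKM, and Tyrobp, a signalling adaptor, 196 ± 3.23 RPKM.

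Hoxb8 was the only HOX gene at a high level. It stood at 43.4, 44.6 and 43.4 RPKM in Parental 1, 2 and 3, a mean of 43.8 ± 0.671, and its 14362 reads made up nearly all those of the HOXB cluster (15649). Its neighbours on both sides, Hoxb7 and Hoxb9 (chromosome 11, 96285604 to 96290163 and 96271330 to 96276595), had no read in any library, nor did Hoxb6. Hoxb4 was on at 2.80, 3.04 and 2.65 RPKM, below Hoxb8 by a factor of 15.5 ± 0.835, and Hoxb3, whose span contains Hoxb4, was at 0.402 ± 0.0328 RPKM. All 18 genes of the HOXC and HOXD clusters had no read. Counts per gene model do not separate reads of an introduced Hoxb8 copy from those of the gene in its own place. Among the cofactors with which HOX proteins bind DNA, Pbx2 (30.3 ± 0.414 RPKM) and Pbx3 (2.87 ± 0.329 RPKM) were on, while Meis1 and Meis2 had no read.

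**Figure D3:**
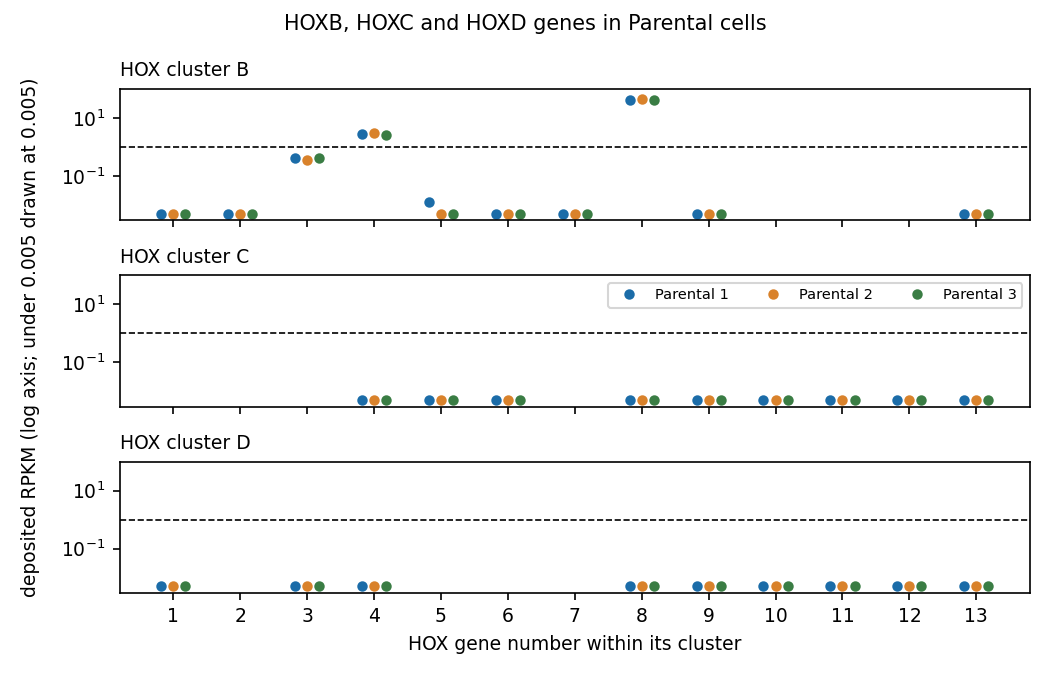
Deposited RPKM (log axis) of the 10 HOXB, 9 HOXC and 9 HOXD genes in each of 3 libraries, by cluster and gene number, with values under 0.005 drawn at 0.005 and a dashed line at 1 RPKM. Hoxb8 stands at about 43.8 RPKM and Hoxb4 at 2.83 RPKM, Hoxb3 lies at 0.402 RPKM, and the HOXC and HOXD genes lie at the floor.

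Several transcription factors of the granulocyte path were high. Of 31 myeloid factors listed, which include factors of other paths, 23 were on and 7 off. Over all coding genes 45.3% were on and 46.3% off. The median of the list was 5.85 RPKM, against 0.256 RPKM over all coding genes and 14.5 RPKM over those on. Myc, which drives growth, led with 214, 226 and 229 RPKM and exceeded Mycn 7.20 ± 0.165 times. Myb, which keeps progenitors dividing and activates granule genes, had 167, 165 and 165 RPKM. Spi1, which encodes PU.1, had 163, 163 and 170 RPKM, so that the ranges of Myb and Spi1 overlapped. Gfi1, a repressor that favours neutrophils over monocytes, had 116 ± 1.80 RPKM and Cebpe, which drives secondary granule genes, 82.0 ± 5.44 RPKM. Cebpe was 75.8, 85.8 and 84.5 RPKM and exceeded Cebpa, the factor of the earliest granulocyte step, 2.71 ± 0.186 times. Cebpb, a factor of monocytes and of stress granulopoiesis, had 102 ± 3.05 RPKM, Zeb2 5.85 RPKM and Egr1 4.05 RPKM. Irf8, which favours monocytes and dendritic cells, was at 1.03, 1.05 and 1.17 RPKM, 153 ± 6.91 times below Spi1, and Klf4, Maf and Egr2 were off. Gata2, a factor of stem and mast cells, and Bcl11a, a lymphoid one, were off as well. Id1 (125 ± 3.25 RPKM) and Lmo2 (96.0 ± 2.24 RPKM), regulators that bind other factors rather than DNA, were among the higher genes.

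Among receptors for growth factors and cytokines, 16 of 22 were on, against 45.3% of all coding genes. Both chains of the GM-CSF receptor were high. Csf2ra, the ligand-binding chain, had 67.3, 75.4 and 74.8 RPKM and Csf2rb, the shared signalling chain, 64.7, 67.9 and 67.1 RPKM. Csf2ra exceeded Kit 48.1 ± 3.08 times and Csf1r 69.5 ± 3.82 times. Csf2rb2, the mouse IL-3 receptor copy of the signalling chain, was at 2.02 ± 0.275 RPKM, and the IL-3 receptor alpha chain Il3ra, at 0.238 RPKM, was not on. Csf2rb and Csf2rb2 are similar in sequence, so their split is uncertain. Csf3r, the receptor for the neutrophil growth factor G-CSF, had 4.14, 4.43 and 4.31 RPKM. The highest receptor of the list was Ifngr1, the ligand-binding chain for interferon gamma (268 ± 5.95 RPKM), followed by Tnfrsf1a, a receptor of tumour necrosis factor (83.4 ± 2.34 RPKM). Other members that were on were Ifnar2, Il4ra, Ifngr2, Ifnar1, Tgfbr2, Tgfbr1, Flt3 and Il6ra, from 30.9 down to 2.75 RPKM. Il6st, the signalling partner of Il6ra, was at 0.0907 RPKM, and Il7r had no read.

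**Figure D4:**
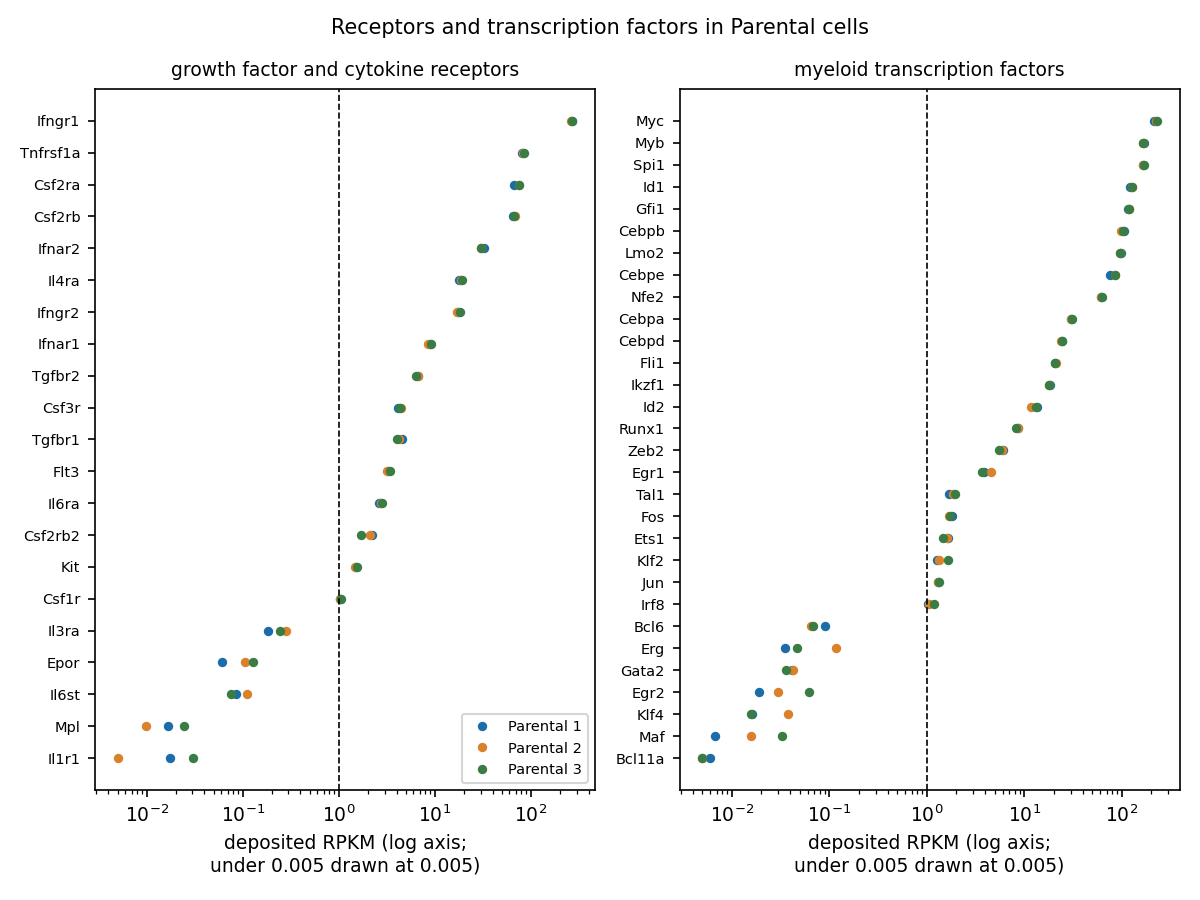
Deposited RPKM (log axis) of the receptor and transcription factor genes with at least 1 read, in each of 3 libraries, ordered by mean, with values under 0.005 drawn at 0.005 and a dashed line at 1 RPKM. Csf2ra and Csf2rb stand at 72.5 and 66.6 RPKM and Kit and Csf1r at 1.51 and 1.04 RPKM, and Irf8 lies at 1.09 RPKM, far below Spi1 and Myb at 166 RPKM.

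The ligands listed for the myeloid growth factor receptors were low or near the floor in the same cells. Csf2, which encodes GM-CSF, had 20 reads over all 3 libraries, Kitl 3 and Il3 none. Csf3 and Csf1 were on at 2.59 ± 0.108 and 2.22 ± 0.211 RPKM. Of 23 cytokine and chemokine genes 9 (39.1%) were on, near the 45.3% of all coding genes, and the 4 highest were chemokines. Ccl9, a chemokine made by myeloid cells, stood at 421, 380 and 398 RPKM and exceeded its neighbour in family Ccl6 15.9 ± 0.620 times. Ccl3 had 172 ± 3.06 RPKM and Ccl4 33.2 ± 0.560 RPKM. Cytokines of activated macrophages were at the floor: Il1b had 10 reads, Il6 had 5, and Il10, Il12b, Cxcl1 and Ifnb1 had none. Tnf was at 1.81 ± 0.0949 RPKM.

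Sensors and effectors of defence differed widely in level. Of 18 pattern recognition genes 6 (33.3%) were on, against 45.3% of all coding genes. They were led by Tlr4, the lipopolysaccharide receptor (88.0, 80.1 and 80.0 RPKM), and Clec4e, a lectin receptor for mycobacterial glycolipid (51.0 ± 2.29 RPKM). Tlr4 exceeded Tlr2, which senses lipopeptides, 25.8 ± 1.45 times, and Tlr1, Tlr3, Tlr5, Tlr8 and Tlr9 were off. All 6 genes of the phagocyte oxidase were on, at very different levels. Cyba, the small membrane subunit, had 416, 458 and 488 RPKM, and Cybb, the catalytic subunit with which it pairs, 3.46, 3.36 and 3.19 RPKM, a ratio of 137 ± 16.5. The cytosolic subunits Ncf1 and Ncf4 had 195 and 54.2 RPKM. In pyroptosis, 7 of 10 genes were on, with Ninj1, which ruptures the membrane of dying cells, at 156 ± 9.06 RPKM and the pore former Gsdmd at 33.6, 36.1 and 38.4 RPKM. Il18 and Nlrp3 were not on, at 0.0908 and 0.613 RPKM. Of 20 interferon-stimulated genes 5 were on and 10 off, against 46.3% off over all coding genes, and Bst2, an antiviral tether (73.3 ± 3.85 RPKM), Stat2, Irf9 and Cmpk2 were among those on.

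Genes of the cell cycle were on almost throughout, against 45.3% of all coding genes. Of 19 genes of G1 and S phase 18 were on, with a median of 60.3 RPKM, and all 11 genes of G2 and mitosis were on, with a median of 80.9 RPKM. Cdk4, the kinase partner of D cyclins, had 295 ± 10.7 RPKM, Mcm6, part of the replicative helicase, 188 ± 1.75 RPKM, and Ube2c, which ends mitosis, 156 ± 2.01 RPKM. The D cyclins were unequal, with Ccnd3 at 68.6 ± 2.22, Ccnd2 at 31.6 ± 0.125 and Ccnd1 at 0.518 RPKM, not on. Inhibitors of the cycle were present at the same time, 7 of 9 being on. Cdkn1a, which encodes p21, had 121 ± 3.31 RPKM, Trp53 66.7 ± 0.374 RPKM, and Cdkn2a, whose locus encodes the p16 and ARF inhibitors, 35.2, 38.0 and 37.8 RPKM.

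Metabolic and secretory genes were high. Over all coding genes 45.3% were on and 46.3% off. Of 19 glycolysis genes 18 were on, with Ldha, lactate dehydrogenase, at 726 ± 25.2 RPKM and Tpi1 at 609 ± 27.4 RPKM. Of the glucose transporters, Slc2a1 had 112 ± 5.04 RPKM and Slc2a3 was off at 0.0529 RPKM, and Hk3 exceeded Hk2 7.85 ± 0.128 times. Egln3, an oxygen sensor induced by hypoxia factors, had 296 ± 4.41 RPKM. All 12 genes of cholesterol and fatty acid synthesis were on. Scd2, a fatty acid desaturase, had 747, 730 and 727 RPKM and exceeded Scd1 5.80 ± 0.0716 times. All 10 genes of endoplasmic reticulum and amino acid stress were on, led by the chaperone Hspa5 (723 ± 16.1 RPKM) and by Xbp1, a factor of secretory cells (572 ± 9.39 RPKM). Of 19 immediate early and heat shock genes 12 were on and 4 off, with Ier2 highest at 70.9 ± 2.48 RPKM, Fos and Jun at 1.75 and 1.31 RPKM, and Hspa1a with 1 read.

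Xist was high and Y-linked genes were silent. Xist, the RNA that silences an X chromosome, stood at 32.7, 35.8 and 30.6 RPKM. All 101 coding genes of the Y chromosome were off and 98 had no read. Eif2s3y, Ddx3y and Uty had 1, 2 and 1 reads over all 3 libraries, and Kdm5d, Zfy1 and Usp9y none. Tsix, which is transcribed against Xist, was listed at 9.60 ± 0.678 RPKM, but whether strand was used in counting is not given in the sources used here, so reads of this pair cannot be told apart. Of 940 coding genes on the X chromosome 29.4% were on, against 36.8% to 54.2% on the autosomes, and 510 of the 940 had no read. The X genes that were on had a median of 12.7 RPKM, against 10.6 to 21.6 RPKM for those on the autosomes. Whether Xist has a part in these shares was not tested.

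The libraries were close, and the distance of Parental 1 was a matter of a few percent in most genes. Over 12935 genes the common biological coefficient of variation (edgeR) was 3.97%, and 2.38% without Parental 1. The median CV of CPM was 4.80% with all 3 libraries and 2.97% without Parental 1. Among 7505 named genes of at least 20 CPM the median CV was 3.57%, with a median of 1.94% from counting, and 99.1% were under 10%. In 64 genes it was 10% or more, and Parental 1 was the library farthest from the other 2 in 43 of these, against 54.6% of all 7505 genes. With any single library left out, 10957 to 10962 gene IDs were on.

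Genes that varied most were of several kinds. Malat1, a nuclear non-coding RNA, had the largest CV, with 146, 192 and 149 CPM, high in Parental 2 alone. ND4 of the mitochondrial genome had 435, 499 and 391 CPM, highest in Parental 2 and lowest in Parental 3. Tmem68 (52.9, 43.7 and 42.1 CPM) and Ndufaf4 (43.6, 35.6 and 35.2 CPM) were high in Parental 1 alone. Dtx3 (18.3, 23.3 and 23.9 CPM), Prodh (21.0, 26.3 and 26.1 CPM) and Pebp1 (31.4, 38.5 and 39.5 CPM) were low in Parental 1 alone. Rpl29 (29.5, 34.9 and 37.7 RPKM) was lowest in Parental 1 as well, Cpeb2 (22.7, 21.3 and 17.9 CPM) was low in Parental 3, and the short gene model Mir6236 had 67.3, 51.2 and 54.4 CPM. The genes of lowest CV were D130020L05Rik, Pmpca, Pym1, Scrn3, Surf2, Galnt2, Nub1, Cdc6, Gstz1 and Pdss1, with CVs of 0.0907% to 0.182%. All were below their counting errors of 1.03% to 3.49%, so these genes cannot be called steadier than others. Pmpca, a mitochondrial import peptidase, had 251.4, 251.0 and 250.8 CPM, closer than its counting error of 1.03%.

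The deviation of a library moved with the GC content of transcripts. In the quintile of genes lowest in GC, the median log2 deviation from the mean of the 3 libraries was 0.07, -0.02 and -0.05 in Parental 1, 2 and 3, and in the quintile highest in GC it was -0.06, 0.03 and 0.03. Across 7409 genes, which share the same libraries and whose deviations are tied to a common mean, Spearman's rho between deviation and GC was -0.76, 0.44 and 0.62. With gene model length it was 0.14, 0.16 and -0.35. Tmem68 and Ndufaf4, high in Parental 1, have transcripts of 40.6% and 41.5% GC, and Dtx3 and Pebp1, low there, of 57.4% and 58.7%. Other variable genes went another way: Malat1 and ND4, of 41.4% and 35.6% GC, were highest in Parental 2. In Parental 1, 1 of 6 oxidase genes and 3 of 18 glycolysis genes were above their mean. So were 4 of 9 granule genes, 9 of 12 genes of cholesterol and fatty acid synthesis and 9 of 15 leukocyte surface genes. Late neutrophil genes (7 of 14) and macrophage and monocyte genes (6 of 13) were divided about evenly there. The share over all genes is not given here, so these counts are not read as traits of the lists. The part of GC content in these counts was not tested. Mitochondrial genes differed in another way: all 7 coding ones that reached 1 CPM were below their mean in Parental 3, by a median log2 deviation of -0.17. All gene IDs of the mitochondrial genome together took 0.818%, 0.855% and 0.710% of the counts in Parental 1, 2 and 3.

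**Figure D5:**
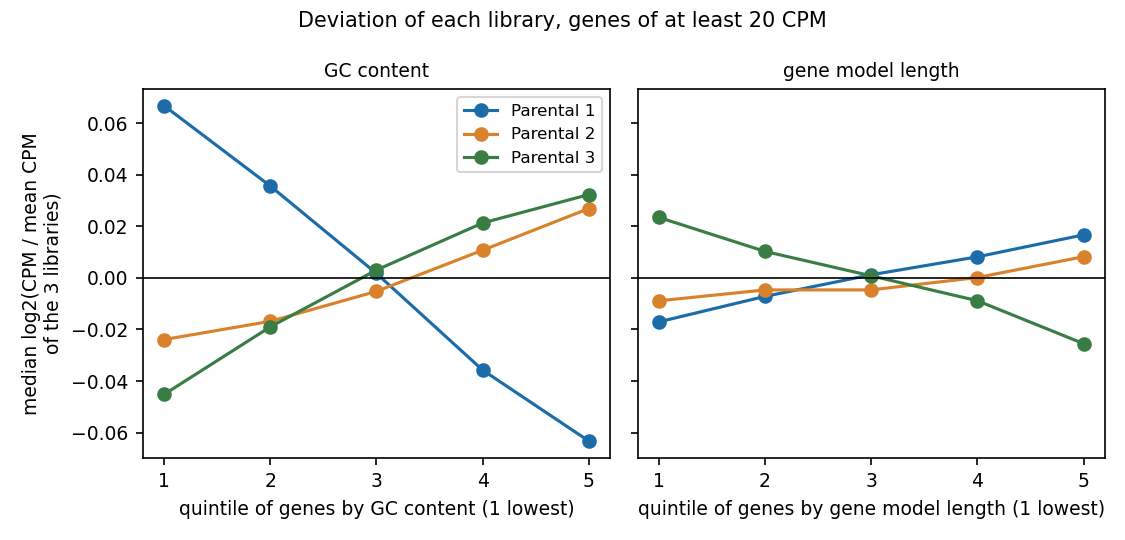
Median log2 ratio of CPM to the mean of the 3 libraries, for named genes of at least 20 CPM in quintiles of transcript GC content (left) and of gene model length (right), 1 line per library. Parental 1 runs from 0.07 in the lowest to -0.06 in the highest GC quintile, opposite to Parental 2 and 3, and the lines for length stay between -0.03 and 0.02.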

How the data were processed

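The submitters' processing notes name GSNAP and GRCm38. Neither the aligner's version nor the annotation, nor whether counting used strand, is given in the sources used here. Library preparation used a stranded total RNA kit per the labels' protocols, whereas the molecule label names polyadenylated RNA. Per the file headers, the authors deposited raw counts of uniquely aligned reads per gene and an RPKM adjusted by size factors. Each library's RPKM is its count times a constant for the gene and another for the library. Symbols, biotypes and positions came from RefSeq GRCm38.p6 for 31049 of 36528 gene IDs, and mitochondrial genes carry RefSeq names. The 5479 IDs without a symbol took 1.88% to 1.91% of counts.

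Groups were taken from the group label, and replicates are numbered in accession order. No group was compared and no test was run. Spread was estimated in R 4.3.3 with edgeR 4.0.16 (filterByExpr, 12935 genes; TMM factors, 1.00 in each library; intercept only) and tested on simulated data. GC content came from GENCODE M21 transcripts for 98.7% of the genes used. Intervals of reads and floors cover counting error only. The cells, the 34 gene lists (621 genes) and the motifs were chosen with earlier results of these data known. Named genes were the 6 markers, the 20 highest coding genes, up to 4 of the highest members of each list, members on of the HOX, HOX cofactor, receptor and Y-linked lists and of off lineages, and the 10 most and 10 least variable of at least 20 CPM. Other genes were named after their values were seen. Not every gene under the rule is named, and some are not reported here. Alternatives were other thresholds, TPM, CPM, IDs with a symbol or coding genes only, RLE factors, library size alone, other filters, DESeq2 1.42.0 and each library left out in turn.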

Additional observations from a re-analysis of the deposited data

How the results depend on the processing

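Calls of on and off held within 1.5 times of the counts given under every alternative run: 9919 to 11895 gene IDs were on, 17577 to 22580 off, and 13594 to 18000 had no read. Of 34 lists, 32 kept their number of members on within 1.5 times at 0.5 RPKM, at 2 RPKM and without each library. The exceptions were the B cell list, with 1 member on at 0.5 RPKM against 0, and the T and NK list, with 1 on at 0.5 RPKM. Without Parental replicate 1 the T and NK list had 1, and 0 to 1 with any library left out. Without length correction the 100 highest IDs took 14.9% of counts, against 23.3% of summed RPKM, and Prtn3, Ctsg, Elane, Mpo and Myb ranked 3, 4, 8, 82 and 141. Among coding genes only, Mpo, Myb and Hoxb8 ranked 122, 317 and 1842. The common biological coefficient of variation was 2.38% to 4.68% and the median CV 2.97% to 4.70% with a library left out, and the median CV was 7.97% with no filter on low counts. The median per-gene value was 4.19% in edgeR and 5.31% in DESeq2. No paired analysis was possible because the labels give no replicate numbers and a single group is described. Depth limits genes near the floor, where any read at all separates the other off genes from those not seen.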

Other observations

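Among 14 non-coding RNA genes 8 were on. For this and the counts below, 29.9% of all gene IDs, 45.3% of coding genes and 5.52% of long non-coding RNA genes were on. The list was led by Snhg1 and Gas5, hosts of small nucleolar RNAs, at 150 and 64.1 RPKM. Neat1, which builds nuclear paraspeckles, had 27.2 RPKM. Short and non-polyadenylated RNAs were looked at after the other values. Of 63 replication-dependent histone genes, whose messages end without a poly(A) tail, 4 were on (H1f2, H4c9, H2bc4 and H2bc21, at 29.3, 13.1, 12.5 and 3.24 RPKM) and the median was 0.150 RPKM, in cells where genes of S phase were on in 18 of 19. Rn7sk, a nuclear RNA made by RNA polymerase III, was at 3.27 ± 0.699 RPKM and Rmrp at 1.23 ± 0.242 RPKM. Rpph1, the RNA of ribonuclease P, had 25.2 ± 1.65 RPKM, and 72 of 124 small nucleolar RNA genes were on. Reads that match several copies are not counted, and the part of this in these levels was not tested. Which library type applies was not settled here.

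Of 1151 miRNA gene models 161 were on, and 153 of these overlap another gene. Overlap was not counted for the models that were not on, so 153 of 161 is not read as a trait of those on. Mir7678, 2495 ± 217 RPKM on a model of 73.8 bases, lies in Slpi, and Mir5114, 1520 ± 111 RPKM, lies in Scd2, a pair of host genes that are themselves abundant. Reads of a host transcript and of a miRNA precursor cannot be told apart here, so these values are levels of the gene models and not of mature miRNAs.

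Of the 13 coding genes of the mitochondrial genome, 7 were on, between 308 and 1928 RPKM, and the other 6 had 32 reads or fewer over all 3 libraries, COX2 among them. Reads that align to several places are not counted, and the part of this in the levels of these 6 genes was not tested. They are therefore not called silent. Partners of a complex differed in some receptors and in the phagocyte oxidase: Ms4a2 was on while Fcer1a had no read, Il6ra was on while Il6st was not, and Cyba exceeded Cybb 120 to 153 times in the 3 libraries.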
